A study of Homo sapiens with 6 samples.

Results

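The replication-dependent histone genes of OCI-AML3 cells were examined by total RNA sequencing after silencing of mutant NPM1. They were taken as every gene whose NCBI symbol is H1-1 to H1-5 or begins with H2AC, H2BC, H3C or H4C followed by a number. This rule found 68 of the 28307 genes in the count table: 5 H1, 17 H2A, 18 H2B, 13 H3 and 15 H4 genes. OCI-AML3 is an established acute myeloid leukaemia line that carries a mutated copy of NPM1, the gene of the nucleolar histone chaperone nucleophosmin, beside a normal copy. The labels call the cells blasts of bone marrow origin with the genotype WT. In the siNPM1c group, cells received an siRNA against the mutant transcript (NPM1c), and in the siControl group a control siRNA. Both were delivered at 10 nM with Lipofectamine RNAiMAX, and RNA was collected on day 3. There were 3 libraries of each group, all under a single batch label. Nothing in the labels says that the 3 libraries came from separate cultures, so the p-values take the spread among the libraries as the error, and that spread may be only technical.

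Histone proteins wrap DNA into nucleosomes. H2A, H2B, H3 and H4 form the core, and H1 binds the linker DNA between cores. The genes studied here supply the bulk of new histone in S phase, when the DNA is copied, and their transcripts are made and destroyed in step with replication. They lack introns for the most part and lie in clusters, and NPAT at the histone locus body drives their transcription. Their mRNAs end in a conserved stem-loop, bound by SLBP and cut with the help of the U7 snRNP, instead of a poly(A) tail. Total RNA retains such mRNAs, whereas selection for poly(A) loses most of them; whether this library kit included such a selection was not given in the sources used here.

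The stem-loop is shown first because it sets these mRNAs apart and because its letters divide the genes. It was found in the GENCODE 29 transcripts of 31 of the 68 genes, and the transcripts of the others as annotated there do not hold it. The 16 bases in capitals are the stem-loop, and the lower-case bases are the 5 that precede and the 5 that follow it. The commonest form was found in 17 genes (6 H2A, 8 H2B and 3 H3), here in H3C10. A form that differs in the loop was found in 4 genes, 3 of them H2B genes (H2BC4, H2BC5 and H2BC7), here in H2BC7. The H4 forms shown in H4C2 and H4C8 and in H4C9 were found in 5 and 3 genes, and H2AC11 had a form of its own.
H3C10 (stem-loop at chr6:27810516-27810531, plus strand): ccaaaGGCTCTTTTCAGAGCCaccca
H2BC7 (stem-loop at chr6:26199968-26199983, plus strand): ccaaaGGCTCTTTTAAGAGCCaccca
H4C2 (stem-loop at chr6:26026901-26026916, minus strand): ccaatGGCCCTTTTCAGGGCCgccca
H4C8 (stem-loop at chr6:26285131-26285146, minus strand): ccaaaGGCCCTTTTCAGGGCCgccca
H4C9 (stem-loop at chr6:27139654-27139669, plus strand): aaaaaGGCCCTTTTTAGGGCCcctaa
H2AC11 (stem-loop at chr6:27133515-27133530, plus strand): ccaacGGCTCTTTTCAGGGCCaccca

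The promoters are shown because the genes of a class share short motifs that separate the classes. RefSeq (GRCh38.p14) gave promoter sequence for 63 of the 68 genes, and the 250 bases before each start were searched on both strands. CCAAT, the element bound by NF-Y, was found in all 5 H1, 16 H2A, 18 H2B and 11 H3 promoters searched but in 3 of 13 H4 promoters, against 33.0% of all 27305 promoters of the same length. TATAAA, the sequence that TBP recognises, was found in 42 of 63 (66.7%), against 11.1% of all promoters. The octamer ATTTGCAT, the binding sequence of the factor POU2F1, was found in 11 of 16 H2A, 14 of 18 H2B and 1 of 11 H3 promoters and in no H1 or H4 promoter, against 1.66% of all promoters. The windows of divergent H2A and H2B neighbours overlap, so 1 octamer can count for both. The H3 match is that of H3C4, whose annotated start is the start of H2AC7, so these genes have 1 window in common. AAACACA, the H1 box, was found in 5 of 5 H1 promoters and in none of the other classes, against 4.95% of all. GGTCCG, a part of the H4 element bound by HINFP, was found in 12 of 13 H4 promoters, against 9.33% of all. It was also found in 1 of 16 H2A, 1 of 18 H2B and 1 of 11 H3 promoters and in no H1 promoter. The H2A and H2B matches are those of H2AC20 and H2BC21, divergent neighbours whose windows overlap. The 120 bases before the start follow for 1 gene of each class and for a second H4 gene. Capitals mark the motifs on either strand, and overlapping matches run together. H2AC11 and H2BC11 are neighbours that run in opposite directions. H3C1 and H4C6 are among the genes with the lowest ratios between the groups, and H4C2 is a gene that was not called.
H1-4 (chr6:26156209-26156328, plus strand): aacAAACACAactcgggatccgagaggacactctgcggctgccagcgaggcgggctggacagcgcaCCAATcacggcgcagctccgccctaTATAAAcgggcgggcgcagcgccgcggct
H2AC11 (chr6:27132923-27133042, plus strand): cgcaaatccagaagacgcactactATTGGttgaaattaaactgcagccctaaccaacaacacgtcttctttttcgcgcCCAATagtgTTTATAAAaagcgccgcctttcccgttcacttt
H2BC11 (chr6:27132796-27132915, minus strand): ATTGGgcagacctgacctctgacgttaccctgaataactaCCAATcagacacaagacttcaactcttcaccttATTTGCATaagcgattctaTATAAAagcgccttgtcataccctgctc
H3C1 (chr6:26020331-26020450, plus strand): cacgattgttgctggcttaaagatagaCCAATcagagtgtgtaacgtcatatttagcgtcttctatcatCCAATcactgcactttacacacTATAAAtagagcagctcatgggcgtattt
H4C2 (chr6:26027284-26027403, minus strand): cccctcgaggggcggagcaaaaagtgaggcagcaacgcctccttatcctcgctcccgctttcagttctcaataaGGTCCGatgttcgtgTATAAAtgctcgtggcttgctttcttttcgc
H4C6 (chr6:26240273-26240392, plus strand): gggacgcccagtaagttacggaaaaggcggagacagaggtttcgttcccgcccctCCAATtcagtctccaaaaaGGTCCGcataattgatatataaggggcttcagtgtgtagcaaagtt

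The libraries held 15075235 to 25190122 counts, of which genes of ribosomal RNA took 70.2% ± 0.813 in siNPM1c and 63.8% ± 0.753 in siControl libraries (SD, n = 3 each). Protein-coding genes took 3414688 to 6695652 counts per library. NPM1 itself had 293, 500 and 350 counts in the siNPM1c libraries, against 922, 1366 and 922 in the siControl libraries, a log2 fold change of -1.10 ± 0.05 (SE), adjusted p = 4.35e-51. The counts do not separate the mutant from the normal transcript. The summed CPM (counts scaled to a library of fixed size) of 8 myeloid markers was 583 ± 7.41 in siNPM1c and 480 ± 1.76 in siControl libraries. Of these markers 6 rose, PTPRC fell by 0.57 on the log2 scale and CD33 was not called. The summed CPM of 6 markers of other cells was 1.96 ± 0.74 and 1.52 ± 0.339, with HBB at 0 in every library. Whether these differences bear on the histone values was not tested. All directions are relative to TMM scaling, under which the median of all genes tested was -0.01. With library sizes alone the median gene stood at -0.48.

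Most replication-dependent histone genes fell with siNPM1c, each by a modest factor, and none rose. Of the 68 genes 53 were abundant enough to test, and 45 of these were called lower at an adjusted p under 0.05 in the quasi-likelihood test of edgeR, with p-values adjusted by Benjamini and Hochberg's method over 12938 genes. Across all genes tested 21.4% were called lower and 21.3% higher, together 42.7%. No histone gene was called higher by this test or by DESeq2, and 1, H2AC25, was higher at an unadjusted p under 0.05. The groups did not overlap, with every siNPM1c library below every siControl library, in 46 of the 53, against 24.9% of all genes tested. The median log2 fold change of the 53 was -0.46, with a range of -1.52 to 0.19. Called lower at 2-fold or more were 3 genes, H4C13, H2BC7 and H3C1, against 1.58% of all genes tested. H4C13, the low end of that range and among the 45, passed the count filter through the siControl libraries alone, so it had to differ. In a bulk sample, fewer cells in S phase and less histone mRNA per cell cannot be told apart. The counter's treatment of reads that fit several gene copies was not given, and this bears on the values of single near-identical genes. With library sizes alone all 53 were called lower, with a median of -0.93.

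**Figure D1:**
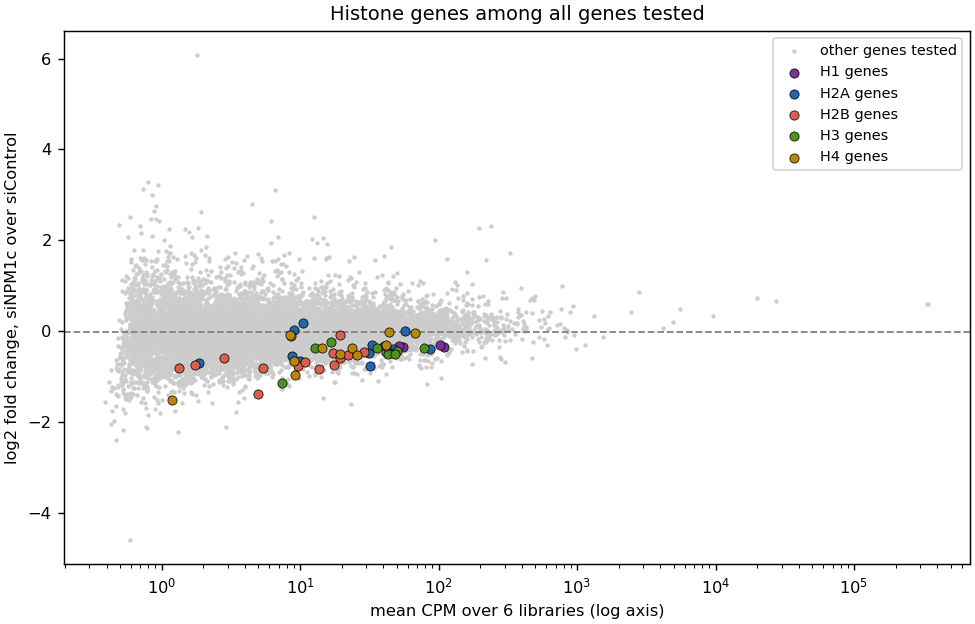
Each point is a tested gene, with its mean CPM over 6 libraries on a log axis and its log2 fold change (siNPM1c over siControl) on the other axis. Histone genes are coloured by class and other genes are grey. The histone points lie mostly below the dashed line that marks the median of all genes tested (-0.01), at low and at high CPM alike.

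The 68 genes together were lower as well. They received 18343, 28069 and 20059 counts in the siNPM1c libraries, against 32206, 48119 and 32220 in the siControl libraries. Set against protein-coding counts alone, which needs no scaling, this was 0.531% ± 0.00668 in siNPM1c and 0.723% ± 0.0115 in siControl libraries (SD, n = 3 each), and the groups were far apart relative to their spread. The summed CPM was 1358 ± 18.1 in siNPM1c and 1754 ± 30.1 in siControl libraries.

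Every class took part, though unequally. H2B genes, whose protein pairs with H2A, summed to 176, 175 and 178 CPM in the siNPM1c libraries, against 264, 250 and 259 CPM in the siControl libraries, a log2 ratio of -0.55. H3 genes summed to 252, 248 and 249 CPM in siNPM1c, against 346, 330 and 336 CPM in siControl libraries, a log2 ratio of -0.43. In neither class did the groups overlap, and the spread within a group was a few percent of its mean. H2A genes summed to 367, 356 and 361 CPM in siNPM1c, against 470, 467 and 445 CPM in siControl libraries, a log2 ratio of -0.35. H1 genes, the linker histones, summed to 293, 282 and 277 CPM in siNPM1c, against 360, 351 and 354 CPM in siControl libraries, a log2 ratio of -0.32. H4 genes, whose protein pairs with H3, summed to 291, 282 and 287 CPM in siNPM1c, against 349, 343 and 339 CPM in siControl libraries, a log2 ratio of -0.26. These 3 classes too had no overlap between the groups. Restricted to genes with at least 80% unique coding windows, the ratio was -0.70 for H2B and -0.23 for H4, so the gap between these classes was wider there.

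**Figure D2:**
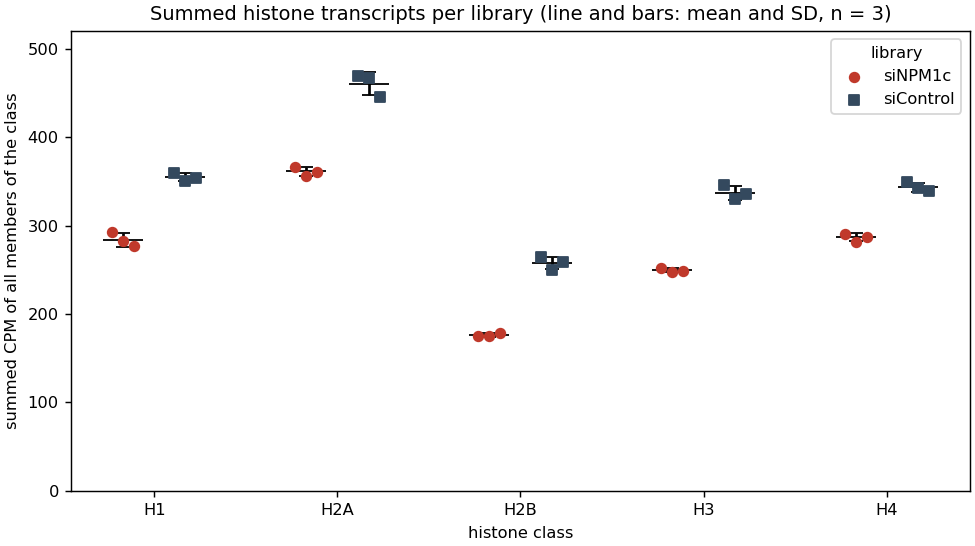
Summed CPM of all genes of each histone class in each of the 6 libraries, with siNPM1c as circles and siControl as squares. The line and bars give the mean and SD of 3 libraries. In every class the 3 siNPM1c libraries lie below the 3 siControl libraries, for H2B at 175 to 178 against 250 to 264 CPM.

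Ratios between classes within a library do not depend on scaling. The summed H2B over H4 was 0.615 ± 0.00966 in siNPM1c and 0.75 ± 0.018 in siControl libraries. H3 over H4 was 0.872 ± 0.00745 in siNPM1c and 0.981 ± 0.0146 in siControl libraries. H2B over H2A was 0.487 ± 0.008 in siNPM1c and 0.56 ± 0.023 in siControl libraries (SD, n = 3 each). In all 3 ratios every siNPM1c library lay below every siControl library, so the class sums changed unequally. The mean H4 sum was 287 CPM in siNPM1c and 344 CPM in siControl libraries. It includes 2 abundant genes that were not called, H4C2 (67.5 against 68.4 CPM) and H4C9 (44.1 against 44.3 CPM). The medians over single genes lay closer for H3, H2A and H4, at -0.41, -0.40 and -0.37, with H2B at -0.67. No test of the ratios between classes was made, and 3 libraries against 3 cannot give an exact permutation p below 0.1.

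The 4 linker histone genes tested fell almost alike, from -0.34 to -0.30 on the log2 scale. H1-4, the most abundant, stood at 96.8, 96.9 and 96.7 CPM in siNPM1c, against 126, 122 and 118 CPM in siControl libraries. The log2 fold change of H1-4 was -0.33 ± 0.03 (SE), adjusted p = 7.07e-20. H1-5 had 96.69, 90.001 and 90.12 CPM in siNPM1c, against 115, 111 and 114 CPM in siControl libraries. H1-2 had 51.0, 49.9 and 45.5 CPM in siNPM1c, against 59.5, 61.8 and 63.8 CPM in siControl libraries. In all 3 genes the groups were separate. The fifth linker gene, H1-1, had too few counts to test.

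Of the 13 H2A genes tested 10 fell, with a median of -0.40 over the 13. H2AC12 had the lowest ratio, with 23.2, 23.5 and 24.5 CPM in siNPM1c, against 39.9, 41.8 and 39.0 CPM in siControl libraries, a log2 fold change of -0.77 ± 0.06 and an adjusted p of 2.16e-29. H2AC11 had 76.6, 73.8 and 74.1 CPM in siNPM1c, against 98.1, 103 and 93.4 CPM in siControl libraries, a log2 fold change of -0.40. H2AC11 was the most abundant H2A gene and fell by about the class median. H2AC20, at chr1:149886918-149887411, did not pass the test. It had 58.1, 56.0 and 57.5 CPM in siNPM1c, against 58.5, 56.3 and 56.6 CPM in siControl libraries, and the groups overlapped around nearly equal means. With a correction for GC content it was called lower, at -0.11 (adjusted p = 0.0223). H2AC16 was likewise not called, at 7.59, 9.90 and 9.65 CPM in siNPM1c, against 9.77, 9.23 and 7.96 CPM in siControl libraries. H2AC25, at chr1:228457364-228457873, had 10.97, 11.91 and 10.73 CPM in siNPM1c, against 8.83, 10.4 and 10.2 CPM in siControl libraries. Its siNPM1c libraries were all above the siControl ones, at a log2 fold change of 0.19 ± 0.09 that missed the threshold (adjusted p = 0.0938).

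H2B genes had the lowest median of the classes, -0.67, and 14 of 15 tested fell. H2BC7, at chr6:26199516-26199988, had 2.86, 2.49 and 2.97 CPM in siNPM1c, against 8.39, 7.02 and 6.18 CPM in siControl libraries. That is a log2 fold change of -1.39 ± 0.15, or 2.62-fold lower, adjusted p = 1.82e-16. Every siNPM1c library held less H2BC7 mRNA than any siControl library. H2BC4 had 8.19, 9.71 and 11.5 CPM in siNPM1c, against 16.7, 17.2 and 18.4 CPM in siControl libraries, a log2 fold change of -0.82. H2BC5 had 6.76, 6.94 and 7.89 CPM in siNPM1c, against 11.3, 12.3 and 13.0 CPM in siControl libraries, a log2 fold change of -0.77. These 3 genes carry the loop variant shown for H2BC7, the only tested genes in which it was found, and their median was -0.82. The 13 tested genes with the commonest form had a median of -0.48, with 11 called lower, but they include H2A and H3 genes. Of their H2B genes, H2BC6 and H2BC9 lay at -0.81, H2BC13 and H2BC26 at -0.74 and H2BC8 at -0.67. H2BC15, H2BC18 and H2BC21 lay at -0.48, -0.46 and -0.08. Whether the form of the loop bears on the change was not tested. The most abundant H2B gene, H2BC12, had 36.4, 33.5 and 36.8 CPM in siNPM1c, against 48.0, 47.1 and 49.6 CPM in siControl libraries, a log2 fold change of -0.45. H2BC18 and H2BC17 lay at -0.46 and -0.53. Of the coding windows 26.1% are unique in H2BC12 and 24.9% in H2BC18, so the counts of these genes may include reads of others. H2BC21 was the H2B gene not called, with 18.6, 18.4 and 19.2 CPM in siNPM1c, against 20.4, 19.5 and 19.7 CPM in siControl libraries. Its groups were just apart, at a log2 fold change of -0.08 ± 0.07 (adjusted p = 0.347).

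All 8 H3 genes tested fell, with a median of -0.41. H3C1, at chr6:26020451-26020958, had 5.71, 4.50 and 3.84 CPM in siNPM1c, against 9.83, 9.66 and 11.02 CPM in siControl libraries. For H3C1 this is a log2 fold change of -1.13 ± 0.12, or 2.18-fold lower, adjusted p = 1.18e-16. H3C13 had 70.8, 68.1 and 65.4 CPM in siNPM1c, against 91.6, 85.4 and 88.0 CPM in siControl libraries, a log2 fold change of -0.37. The abundant H3C13 thus had a smaller log2 change than the scarce H3C1, and H3C10 and H3C4 lay between them at -0.44 and -0.49. H3C4 has no unique coding window and its annotated span holds H2AC7, so its counts may include reads of other genes. In H3C13 18.9% of coding windows are unique, so its counts may include such reads too. H3C11 had 14.6, 15.5 and 16.3 CPM in siNPM1c, against 17.99, 17.44 and 19.09 CPM in siControl libraries, the smallest fall of the class at -0.23 ± 0.08 (adjusted p = 0.00995). This call was lost under DESeq2 (adjusted p = 0.0727), without siNPM1c replicate 1 (adjusted p = 0.0663) and without siControl replicate 3 (adjusted p = 0.0586).

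Of the 13 H4 genes tested 9 fell, and the class spanned a range of -1.52 to -0.01. H4C6, at chr6:26240393-26240793, had 6.24, 6.46 and 5.87 CPM in siNPM1c, against 11.55, 12.63 and 12.05 CPM in siControl libraries. For H4C6 this is a log2 fold change of -0.96 ± 0.10, adjusted p = 4.73e-16. H4C13 had 7, 9 and 13 counts in the siNPM1c libraries, against 33, 36 and 40 in the siControl libraries, a log2 fold change of -1.52 ± 0.31 (adjusted p = 1.16e-05). It was the only histone gene to pass the count filter through the siControl libraries alone, and a gene that passes in that way had to differ. H4C2, at chr6:26026896-26027283, had 68.7, 65.9 and 67.8 CPM in siNPM1c, against 69.0, 70.0 and 66.3 CPM in siControl libraries. Its log2 fold change was -0.03 ± 0.04 (adjusted p = 0.61), and its groups overlapped. With the GC correction it was called lower, at -0.09 (adjusted p = 0.0357). H4C9, at chr6:27139282-27139678, had 45.004, 43.21 and 43.98 CPM in siNPM1c, against 43.9, 43.8 and 45.3 CPM in siControl libraries, a log2 fold change of -0.01 ± 0.05 (adjusted p = 0.876). The groups of H4C9 overlapped as well. H4C5 and H4C16 were not called either, at -0.07 ± 0.11 and -0.10 ± 0.11.

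**Figure D3:**
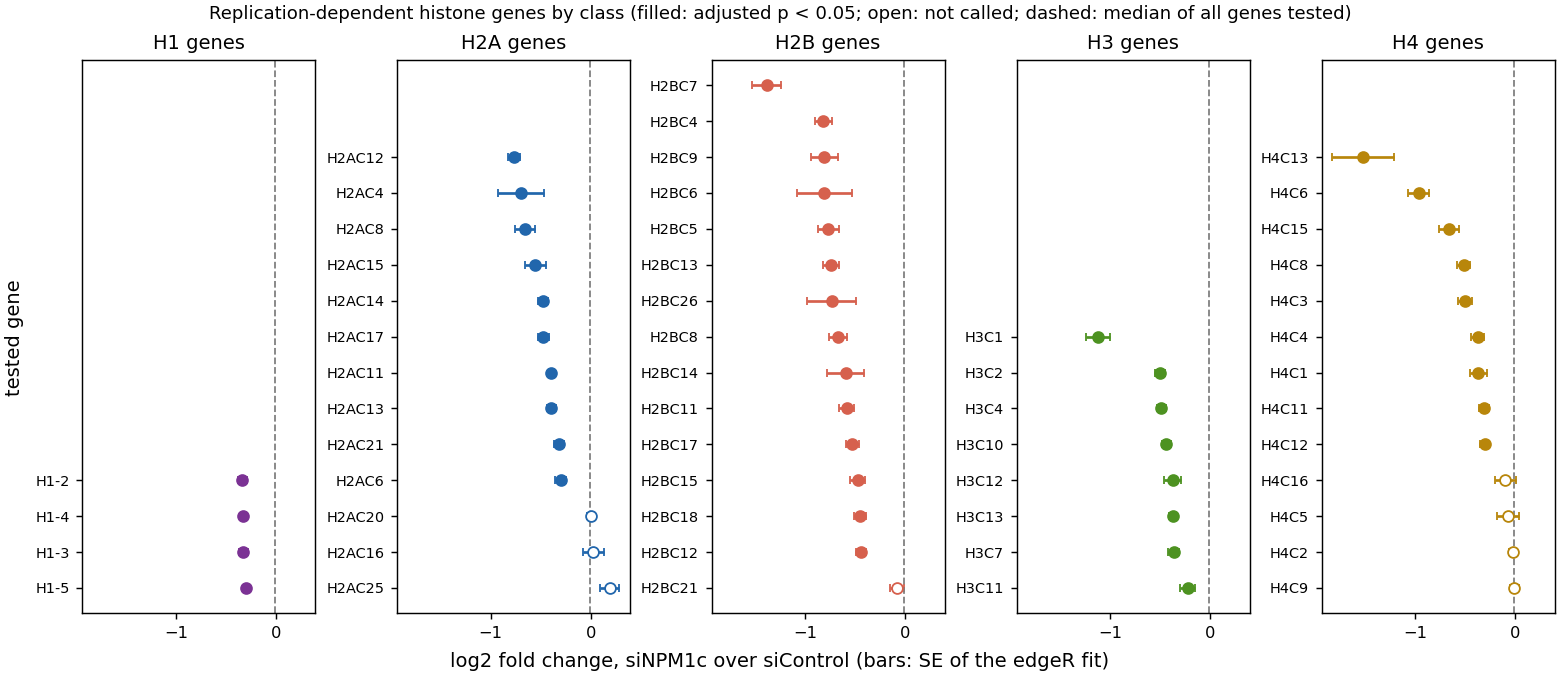
Log2 fold change (siNPM1c over siControl) of the 53 tested histone genes, 1 panel per class, with bars for the SE of the edgeR fit and filled points for genes called lower. The 8 open points, 3 in H2A, 1 in H2B and 4 in H4, lie near the dashed median of all genes tested, and H2BC7, H3C1 and H4C13 lie farthest to the left.

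H4C11 and H4C12 need a separate remark. Their coding sequences hold no 50-base window of their own among the transcripts, and their counts were nearly equal in every library, for example 734 and 736 in the second siNPM1c library and 1211 and 1211 in the second siControl library. The differences of 0 to 15 counts were below the counting error of 32.0 to 49.2. Their values, log2 fold changes of -0.32 and -0.31, may describe 1 shared pool of reads, and with H4C12 left out 44 of 52 genes were called lower. Over all histone genes, the 37 tested ones with at least 80% unique coding windows had a median of -0.44 with 31 called lower, and the 16 others had -0.47 with 14 called lower.

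Levels of different genes were compared per kilobase of coding sequence. H4C2 reached 218 ± 4.71 CPM per kb in siNPM1c and 221 ± 6.13 in siControl libraries. H2AC11 reached 192 ± 3.95 CPM per kb in siNPM1c and 251 ± 11.8 in siControl libraries. H4C2 therefore ranked first of the 53 in the siNPM1c libraries, and H2AC11 ranked first in the siControl libraries, in both cases with no overlap between the 2 genes. H3C13 came next in order, at 167 ± 6.64 CPM per kb in siNPM1c and 217 ± 7.61 in siControl libraries. In the siControl libraries its values overlapped those of H4C2. Of the coding windows of H3C13 18.9% are unique, so its level and rank may depend on how reads of near-identical genes were counted. H2AC20 ranked 4 in siNPM1c libraries at 148 ± 2.72 CPM per kb and 8 in siControl libraries at 148 ± 3.08. In the siNPM1c libraries its range overlapped those of H1-4 and H4C9, the next in order. At the other end, H4C13, H2BC6 and H2BC26 reached 1.98, 2.56 and 3.46 CPM per kb in siNPM1c and 5.70, 4.46 and 5.71 CPM per kb in siControl libraries. The 27 genes at or above the median CPM had a median log2 fold change of -0.38, with 24 called lower, and the 26 below it -0.66, with 21 called lower.

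The other 15 genes did not pass the filter. In 7 of them no read was counted in any library, and the other 8 had at most 11 counts over all 6 libraries. They are H1-1, H2AC1, H2AC7, H2AC18, H2AC19, H2BC1, H2BC3, H2BC10, H3C3, H3C6, H3C8, H3C14, H3C15, H4C7 and H4C14. In 5 of them (H2AC18 and H2AC19, H3C14 and H3C15, and H4C14) no coding window is unique, and in H2AC7, which lies inside the span of H3C4, 1.17% are. The low counts of these 6 say little of their transcription.

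Along the chromosomes the fall was spread over all large groups of neighbouring genes. The largest group, chr6:26017032-26285534 with 31 genes, had 21 of 23 tested genes called lower and a median of -0.51. The group at chr6:27807479-27893891 had 15 of 16 called lower and a median of -0.46, and the one at chr6:27132316-27147562 had 4 of 5 and a median of -0.45. On chromosome 1 the group at chr1:149782689-149887965 had 4 of 6 tested genes called lower and a median of -0.34. Some genes that were not called lay beside genes that fell. H4C2 has H4C1 and H3C2 as its tested neighbours, at -0.37 and -0.50. H4C9 lies inside the annotated span of H2BC12 (chr6:27138293-27146858), a gene that stood at -0.45. The next tested gene past that span, H2AC12, stood at -0.77. H2AC20 and H2BC21, by contrast, are a divergent pair on chromosome 1 of which neither gene was called, and H4C16 stands alone on chromosome 12. Whether the uncalled genes differ in response from their neighbours was not tested.

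**Figure D4:**
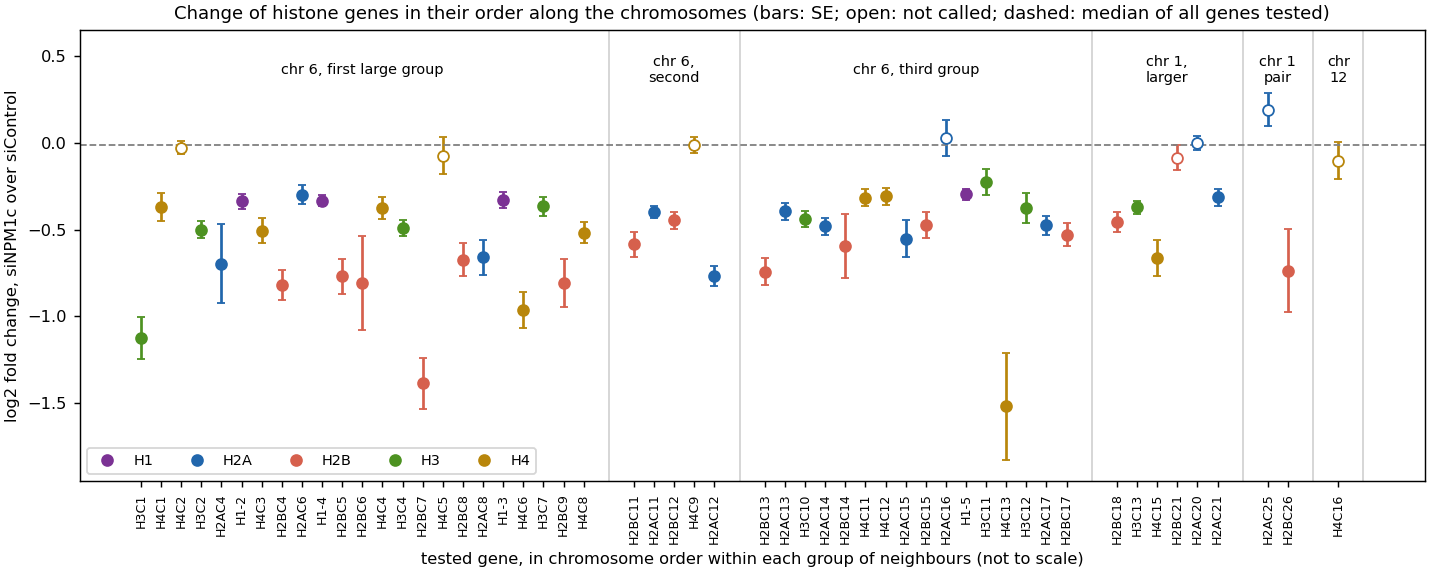
Log2 fold change (siNPM1c over siControl) of the tested histone genes in their order along chromosomes 6, 1 and 12, spaced evenly and not to scale, with SE bars, class colours and open points for genes not called. Genes called lower occur throughout the chromosome 6 groups, and H4C2, H4C5, H4C9 and H2AC16 stand as open points between them.

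H2A and H2B genes often start back to back from a shared stretch of promoter. There were 11 such pairs, with starts 194 to 248 bases apart, and both genes were tested in 9. H2B had the lower log2 fold change in 8 of the 9, and the difference (H2B minus H2A) ran from -0.93 to 0.08 with a median of -0.12. These differences were not tested. In 6 of the 9 pairs a gene had under 80% unique coding windows, and in the other 3 the difference was -0.52, -0.19 and -0.01. In the pair whose promoters are shown, H2BC11 had 17.0, 15.2 and 13.9 CPM in siNPM1c, against 25.1, 21.5 and 22.8 CPM in siControl libraries. Its log2 fold change was -0.59 ± 0.07, beside -0.40 ± 0.04 for H2AC11. In the pair of H2AC6 and H2BC4 the log2 fold changes were -0.30 and -0.82, and that of H2AC6 was -0.15 with the GC correction. The widest gap was in H2AC25 and H2BC26, at 0.19 and -0.74.

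Some of these genes are known to give polyadenylated mRNA as well, in particular outside S phase. Of the 5 such genes listed, 4 fell: H1-2 at -0.34, H2AC6 at -0.30, H2BC5 at -0.77 and H2BC12 at -0.45. H2BC21, the fifth, was not called. Among genes whose annotated transcripts run at least 150 bases past the stem-loop, 12 of 17 tested were called lower, with a median of -0.46. Among those with shorter annotated ends, 6 of 7 were called lower, with a median of -0.66. This split covers only genes with a stem-loop in their annotated transcripts and does not follow the list above. H1-2 and H2BC12 are in neither set, and H2BC5 is in the shorter one. By stem-loop form, the 5 tested H4 genes with the form shown for H4C2 had 2 called lower (H4C8 and H4C11) and a median of -0.10. Other tested H4 genes had the form shown for H4C9 or no stem-loop in their annotated transcripts. All those without one, H4C12 among them, were called lower, so the comparison by form covers only part of the class. H4C8 fell by 0.52 on the log2 scale (SE 0.06) and H4C2 stood at -0.03, with the same 16 bases.

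The counts of the lists that follow stand beside 42.7% of all genes tested called, 21.4% lower and 21.3% higher, and a share near these is no result about a list. Of 8 tested factors that act on histone gene transcription, 3 fell and 1 rose, with a median of -0.13. With the GC correction 1 was lower and 2 were higher, POU2F1 among them, and with library sizes alone all 8 were lower. NPAT, the coactivator of these genes, had 8, 36 and 20 counts in the siNPM1c libraries, against 45, 99 and 46 in the siControl libraries. Its log2 fold change was -1.17 ± 0.22 (adjusted p = 3.0e-06), the groups were separate and the siNPM1c libraries were uneven, at 0.601, 1.72 and 1.35 CPM against 2.499, 3.582 and 2.474 CPM in siControl libraries. CASP8AP2 (FLASH), a partner of NPAT that also serves mRNA 3' end cutting, fell by 0.56 on the log2 scale (SE 0.15), and E2F3, an S-phase transcription factor, by 0.25 (SE 0.08). With a correction for GC content neither CASP8AP2 nor E2F3 was called, and DESeq2 did not call E2F3. HINFP, which binds the H4 element, had 8.19, 7.22 and 7.49 CPM in siNPM1c, against 7.27, 7.71 and 7.91 CPM in siControl libraries, and was not called (-0.01 ± 0.11, adjusted p = 0.946). YY1 rose by 0.26 (SE 0.04), and with library sizes alone its sign turned, at -0.21.

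Of 18 tested genes of histone mRNA 3' end processing, 8 fell and 1 rose, with a median of -0.21. DESeq2 called 5 lower and 1 higher, the GC correction gave 7 lower and none higher, and with library sizes alone all 18 were lower. SLBP, the stem-loop binding protein, had 21.6, 24.5 and 23.5 CPM in siNPM1c, against 19.5, 22.1 and 21.6 CPM in siControl libraries. Its groups overlapped and it was not called (0.14 ± 0.07, adjusted p = 0.0767). SNRPD3, a ring protein of small nuclear RNPs, fell by 0.40, and SRRT, which links the cap-binding complex to processing, fell by 0.24. SYMPK, the scaffold of the cleavage complex, rose by 0.16, but was not called with the GC correction (0.06, adjusted p = 0.148) and stood at -0.31 with library sizes alone. The gene of the U7 RNA was listed with 0 counts in every library. Of 13 tested genes of histone mRNA decay, 5 fell and 1 rose, with a median of -0.35, and with library sizes alone all 13 were lower. The decapping enzyme DCP2 fell by 0.46, the kinase ATR by 0.69 and the uridyl transferase TUT4 by 0.64. With the GC correction DCP2 stood at -0.27 and ATR at -0.45, both still called. LSM4, of the LSM ring, rose by 0.30 and stood at -0.17 with library sizes alone.

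Of 21 tested histone chaperones and assembly factors, 10 fell and 2 rose, with a median of -0.14. DESeq2 called 7 lower, and with library sizes alone all 21 were lower, with HIRA and UBN1, the genes that rose, at -0.22 and -0.29. Among the 10 that fell is NPM1 itself, the target of the siRNA, whose fall the design aimed at. SSRP1, a FACT subunit, fell by 0.33, NAP1L1, which carries H2A and H2B, by 0.55 (0.33 with the GC correction), and RBBP7, a histone-binding subunit of several complexes, by 0.66. Of 36 tested S-phase genes, 16 fell and none was called higher, with a median of -0.18. DESeq2 called 12 lower and none higher, and library sizes alone gave 35 lower. The GC correction gave 20 lower and 1 higher, the checkpoint gene CLSPN (0.20, adjusted p = 0.0383). PCNA, the sliding clamp of replication, fell by 0.92, E2F8 by 0.64, and the helicase subunits MCM6 and MCM7 by 0.41 and 0.20. The part of these changes in the fall of the histone mRNAs was not tested.

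The replacement histones, which are made outside S phase as well, most of them from ordinary polyadenylated mRNAs, were mixed: of 11 tested, 6 rose and 4 fell, with a median of 0.23. With the GC correction 4 rose and 4 fell, with a median of 0.08. MACROH2A1, an H2A variant with a large extra domain, had 89.8, 91.2 and 86.3 CPM in siNPM1c, against 63.8, 59.5 and 59.7 CPM in siControl libraries. The groups were far apart, at a log2 fold change of 0.55 ± 0.04 (adjusted p = 3.08e-33). H2AJ rose by 1.02. H2AX, which marks DNA breaks when phosphorylated, fell by 0.24 (0.37 with the GC correction). With library sizes alone 3 of the 11 were called higher and 6 lower, and MACROH2A1 was not called (0.08, adjusted p = 0.0865).

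**Figure D5:**
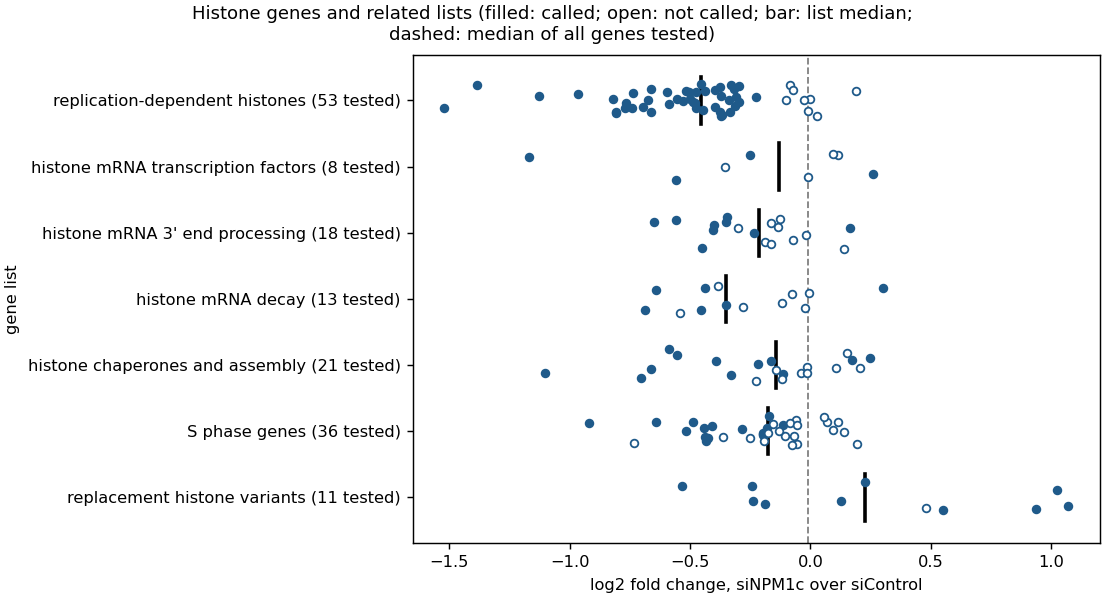
Log2 fold change (siNPM1c over siControl) of the tested genes of each list, with filled points for genes called, open points for genes not called, a bar at each list's median and a dashed line at the median of all genes tested. The median of the replication-dependent histone genes lies at -0.46, those of the processing, decay, chaperone, transcription and S-phase lists between -0.35 and -0.13, and that of the replacement histones at 0.23.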

How the data were processed

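The deposited table holds raw gene-level counts, as whole numbers under Entrez identifiers. According to the submitters' processing notes, the tools included STAR 2.7.5a, cutadapt 2.6, CASAVA 1.8 and, in addition, DESeq2 1.34.0, with mm10 and hg38 as builds; their roles, the counter, its annotation, its strand setting and its treatment of reads with several matches are not given in the sources used here. Of 28307 genes, 28261 were matched to a symbol through RefSeq (GRCh38.p14). All 6 libraries were compared, 3 siNPM1c with 3 siControl, the group and replicate being taken from the titles. Replicates were checked by a chi-square of their counts, which was 1.46 to 2.36 per degree of freedom within groups, above sampling noise, so each library counted once.

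Counts were tested in R 4.3.3 with edgeR 4.0.16: filterByExpr (minimum count 10, total 15), TMM scaling and the quasi-likelihood test (robust), two-sided, with Benjamini-Hochberg adjustment over 12938 genes and a threshold of 0.05. SE is the size of the log2 fold change over the root of the test's F. CPM use TMM-adjusted library sizes. The common biological coefficient of variation was 2.17%. The test was checked on simulated counts. Class sums take CPM of all genes of a class, with no test.

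Promoters and coordinates are from RefSeq (GRCh38.p14) and stem-loops from GENCODE 29 transcripts on GRCh38, on which coding windows of 50 bases found in no other gene's transcript were also counted; neighbours within 200000 bases formed a group. Histone genes were named if among the 3 most abundant or the extremes (mean of at least 5 CPM) of a class, among the 5 lowest, not called, or known for polyadenylated forms; of the other lists up to 4 called genes with the smallest p, with NPAT, SLBP and HINFP. HIRA, UBN1, POU2F1, CLSPN, PTPRC and CD33 were named after their values were seen; 1 gene is not reported here. H1-1, H2BC6, H2BC8, H2BC9, H2BC11, H2BC13, H2BC15, H2BC26, H3C2, H4C1, H4C8 and H4C12, and the untested genes, were named after their values were seen. The histone genes and lists were chosen with earlier results of these data known. Alternatives were other scalings (DESeq2 size factors, upper quartile, library sizes alone, structural RNA left out), filters, DESeq2 1.42.0, limma-voom (limma 3.58.1), robust = FALSE, a GC correction (lowess, span 0.3), the replicate block, each library left out and, added after the data were seen, H4C12 left out.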

Additional observations from a re-analysis of the deposited data

How the results depend on the processing

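The number of histone genes called lower was 45, and 40 (of 48, filter of 5 CPM in 3 libraries) to 53 (library sizes alone) under the alternatives; leaving out each library gave 43 to 45, DESeq2 41, the GC correction 47, and none was called higher in any of them. The labels give no pairing by replicate number, and same-numbered deviations over genes had correlations of only 0.0150, 0.00157 and 0.00300. Total counts and the share of ribosomal RNA, however, had the same order by replicate number in both groups, highest in replicate 2. Whether libraries of the same number were handled together is not known. With a replicate block 45 were called lower, or 47 with the GC correction as well. With library sizes alone the median of the tested genes was -0.93, and the ratios of the class sums were -0.79 for H1, -0.82 for H2A, -1.02 for H2B, -0.90 for H3 and -0.73 for H4, where the median of all genes moved to -0.48 as well. Restricted to genes with unique windows, those of H2B and H4 were -0.70 and -0.23; this leaves genes out of the sum. Signs turned only in genes not called: H2AC20 stood at 0.0053 (DESeq2 size factors), 0.0056 (DESeq2), 9.96e-05 (replicate block) and -0.012 to 0.024 with a library left out. H2AC25 stood at -0.28 with library sizes alone. H2AC16 stood at -0.44 with library sizes alone, -0.093 with the GC correction, -0.094 with GC correction and block, and -0.049 to 0.13 with a library left out. H4C9 stood at 0.0197 with the GC correction, with or without the block, and at -0.021 to 0.012 with a library left out; H4C2 at -0.046 to 0.00029. Under the GC correction H2AC20 and H4C2 were called lower, at -0.11 and -0.09, and with library sizes alone all 8 uncalled genes were. The cause of these changes was not tested. Of 550 values of the 29 named histone genes under the alternatives, 520 kept sign and side of the threshold. Filters, tests, GC and block were not applied to class sums, which rest on no test. For scarce transcripts such as H4C13, H2BC6 and NPAT, counting error limits the fold.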
